A study of Bos indicus x Bos taurus with 11 samples.

Results

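The baseline transcriptome of skin fibroblasts from control bovine fetuses was described from 5 of the 11 libraries of the series, all those of the control group. The genes described are the 21862 rows of the deposited count table that carry a gene name; loci that the authors assembled outside the annotation were set aside. Genes were ranked by their mean CPM (read counts scaled to a library total of 1000000 over annotated genes), and their spread was ranked by the standard deviation (SD) of log2(CPM + 0.5) over the 5 libraries. Because the ranks are fixed by these values, they are given as descriptions with no test. The control fetuses were F1 hybrids of Brahman and Angus parents, that is of Bos taurus indicus with Bos taurus taurus, conceived by artificial insemination and taken at day 105 of gestation; 2 were female (controls 1 and 2) and 3 were male (controls 3, 4 and 5). Each library was made from a primary culture, set up from the skin of a single fetus and grown in medium with 10% fetal bovine serum. The other 6 libraries came from fetuses with large offspring syndrome (LOS), an overgrowth condition of cattle; these fetuses, of both sexes, were hybrids of the same kind and day from assisted reproduction. They were used only as a further set of libraries in which to rank the same genes by level and by spread, and no gene was tested between the groups. Ribosomal RNA was removed before total RNA was sequenced with paired reads of 150 bp.

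Fibroblasts are the cells that build the connective tissue of skin. They secrete procollagen chains, which are hydroxylated and folded in the endoplasmic reticulum, trimmed outside the cell, laid down as fibrils and crosslinked by lysyl oxidases, and they turn the matrix over with metalloproteinases and cathepsins. Grown on a stiff surface in serum, fibroblasts of many tissues assemble actin stress fibres and take on features of myofibroblasts, while HOX and T-box genes keep a record of the body position they came from.

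Between 13202570 and 17831924 reads were assigned to annotated genes per library, and 5.87% to 7.47% of all counted reads lay in the assembled loci. Reads were present for 17365 to 18013 annotated genes per library, and for 15120 genes in all 5. On average 12855 genes reached 1 CPM, 8730 reached 10 CPM, 1845 reached 100 CPM and 95 reached 1000 CPM. Reads were concentrated in few genes: the 10 genes with the most reads held 13.8% ± 0.969 (SD, n = 5) of counts, the first 100 held 31.8% ± 2.27 and the first 1000 held 61.6% ± 1.78. Protein-coding genes held 95.7% ± 0.622 of counts, pseudogenes 2.12% ± 0.476 and long noncoding RNA genes 0.980% ± 0.112. CPM is not divided by transcript length, so the order of genes below is an order of read counts and not of transcript numbers.

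The label of the cultures was checked against the fibroblast markers first. COL1A1, the alpha 1 chain of type I collagen on chromosome 19 (36457701 to 36475647, ARS-UCD1.2), had the most reads of all genes, with 35258, 28101, 31663, 30835 and 34772 CPM in controls 1 to 5. The range was narrow: the highest library was 1.26 times the lowest, and the SD on the log2 scale was 0.13. COL1A2, the alpha 2 chain of the same trimer, averaged 10325 CPM with an SD of 0.18, and SPARC, a collagen-binding glycoprotein of the matrix, averaged 9049 CPM with an SD of 0.19. COL3A1, the chain of the type III collagen abundant in fetal skin, lay between 5398 and 5999 CPM in 4 libraries and at 8342 CPM in control 2. FN1, the fibronectin gene, was the marker that differed most between cultures, with 4699, 1680, 6403, 2093 and 7849 CPM in controls 1 to 5. Controls 2 and 4 were lowest and control 5 highest for FN1, a 4.67-fold range and an SD of 0.99.

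Of the wider list of 22 fibroblast genes, 21 had a row and 20 averaged 10 CPM or more. VIM, the intermediate filament of mesenchymal cells, averaged 10762 CPM; DCN and LUM, small proteoglycans of collagen fibrils, averaged 1157 and 1112 CPM; PDGFRA, a receptor for platelet-derived growth factor, averaged 856 CPM and THY1, a surface glycoprotein, 583 CPM. PRRX1, a homeobox factor of limb and body wall mesenchyme, averaged 789 CPM. TCF21, a transcription factor of visceral and cardiac fibroblasts, stood apart at 0.363 CPM. All 5 libraries thus carried the fibroblast markers among their most counted genes.

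**Figure D1:**
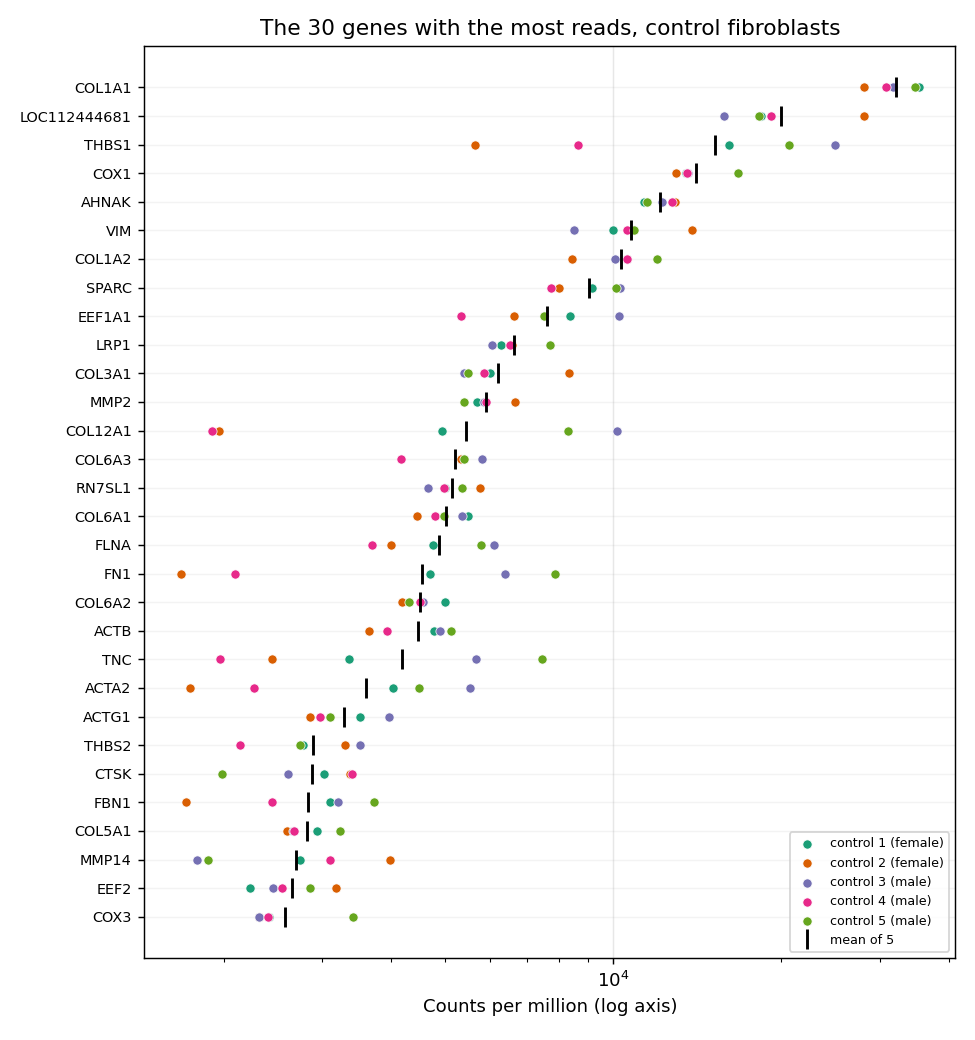
CPM in each control library (points, log axis) for the 30 genes with the highest mean, with a bar at the mean of 5. COL1A1, AHNAK and COL6A2 have points close together, while THBS1, COL12A1, FN1, TNC and ACTA2 have their lowest points in controls 2 and 4.

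Collagen chains held 7.66% ± 0.754 of counts in 39 measured genes, the largest share of the functional lists; 9 of them stood among the 100 genes with the most reads. Beside types I and III, the beaded microfibril collagen VI was prominent: COL6A3 averaged 5207 CPM, COL6A1 5011 CPM and COL6A2 4505 CPM, each with an SD of 0.18 or less. COL5A1, which seeds type I fibrils, averaged 2823 CPM with an SD of 0.13, and its partner COL5A2 1845 CPM with an SD of 0.46. COL12A1, a collagen that decorates fibrils, was the exception among the abundant chains. Its values were 4932, 1963, 10163, 1905 and 8276 CPM in controls 1 to 5, so that controls 3 and 5 lay far above controls 2 and 4, a 5.33-fold range. The basement membrane chains COL4A1 and COL4A2 averaged 711 and 343 CPM. At the other end, the cartilage chains COL2A1 (0.144 CPM) and COL10A1 (0.0151 CPM) and the epidermal anchoring chain COL17A1 (0.732 CPM) stayed under 1 CPM, and COL26A1 had no reads in any of the 5 libraries.

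Noncollagen glycoproteins and proteoglycans held 5.48% ± 1.58 of counts, from 3.65% in control 2 to 7.12% in control 3, the widest share in absolute terms among the lists. Most of that range came from THBS1, which encodes thrombospondin 1, a secreted glycoprotein that binds latent TGF-beta, and was the third gene by reads. It had 16146, 5654, 25004, 8638 and 20676 CPM in controls 1 to 5. Control 3 was the highest and control 2 the lowest, a 4.42-fold range. TNC, the tenascin of developing and healing connective tissue, had 3353, 2447, 5672, 1973 and 7452 CPM in the same order, and CTGF, a matricellular protein induced by TGF-beta and by YAP, had 1512, 558, 2384, 735 and 1798 CPM. For both genes controls 2 and 4 were again the lowest. THBS2, a relative of THBS1, did not follow it: its values were 2782, 3299, 3515, 2139 and 2744 CPM, with an SD of 0.28. The elastic fibre gene FBN1 averaged 2838 CPM with its lowest value, 1710 CPM, in control 2.

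Genes that hydroxylate, fold, export, trim and crosslink collagen held 1.15% ± 0.141 of counts, and 34 of the 36 measured genes averaged 10 CPM or more. LOX, the lysyl oxidase that crosslinks collagen and elastin, led with 1670, 903, 1687, 1784 and 1897 CPM, so that control 2 stood alone at the low end. SERPINH1, the collagen chaperone, averaged 978 CPM with an SD of 0.13, and CALR, a chaperone for glycoproteins, averaged 842 CPM with an SD of 0.16. The median SD of the list was 0.24 on the log2 scale, against 0.20 over all genes at this level, and 0 of its 34 genes were over 1, against 1.44% of all. Control 2 was the lowest library for 19 of the 34 genes, against 21.0% of all.

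Matrix proteases and their inhibitors held 1.87% ± 0.168 of counts. MMP2, the gelatinase, was the most counted, with 5684, 6675, 5850, 5921 and 5397 CPM, a narrow range. CTSK, a cathepsin that degrades collagen in acid compartments, averaged 2880 CPM, and MMP14, the membrane-bound metalloproteinase that activates MMP2, had 2740, 3979, 1792, 3110 and 1877 CPM, with controls 3 and 5 lowest. TIMP3, an inhibitor that stays bound to the matrix, had 2233, 625, 3954, 1065 and 1597 CPM, while TIMP2 stayed between 971 and 1159 CPM. Among these inhibitors TIMP3 thus ranged 6.33-fold between cultures (SD 1.01), against an SD of 0.10 for TIMP2.

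Genes of actin and other cytoskeletal proteins held 6.47% ± 0.562 of counts and gave 15 of the first 100 genes, the most of the functional lists. AHNAK, a giant scaffold protein under the membrane, was the steadiest of the 10 genes with the most reads: its 5 values ran from 11355 to 12904 CPM, with an SD of 0.08. ACTB and ACTG1, the cytoplasmic actins, averaged 4470 and 3282 CPM. ACTA2, the smooth muscle actin that marks myofibroblasts, had 4026, 1743, 5522, 2264 and 4488 CPM, with controls 2 and 4 lowest. TPM1 and TPM4, tropomyosins of stress fibres, had their 2 lowest values in controls 2 and 4 as well, at 1128 and 1111 CPM for TPM1 and 852 and 976 CPM for TPM4. Of the 40 genes of this list with 10 CPM or more, 23 were highest in control 3, and 16 each were lowest in control 2 and in control 4. Over all 8730 genes with 10 CPM or more, control 3 was the highest library for 16.3%, control 2 the lowest for 21.0% and control 4 the lowest for 10.3%. Controls 2 and 4 also had the largest totals of reads, 17831924 and 17642324, against 13202570 to 14335654 in the other libraries; the part of depth in these values was not tested.

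Ribosomal protein and elongation factor genes held 4.46% ± 0.255 of counts. EEF1A1, which brings aminoacyl-tRNA to the ribosome, averaged 7617 CPM, and EEF2, which moves the ribosome along, 2653 CPM. The 82 genes were the steadiest list, with a median SD of 0.11 against 0.20 over all genes with 10 CPM or more. RPL10 ran from 950 to 1028 CPM and RPS4X from 667 to 738 CPM. Control 2 was highest for 47 of the 82 genes and control 4 lowest for 34, against 30.9% and 10.3% of all genes at this level. Many of these genes have processed pseudogenes. The counting of reads shared with them was not given in the sources used here, and their levels are therefore uncertain.

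The 13 protein-coding genes of mitochondrial DNA held 2.79% ± 0.291 of counts, and 8 of them were among the first 100 genes. These genes have no introns, so their level per length could be computed. COX1, a core subunit of complex IV, had 9101 ± 980 CPM per kilobase and COX3 3295 ± 608. ND4 and ND6, subunits of complex I, had 407 ± 51.2 and 270 ± 48.1 CPM per kilobase. ND6 is the only member on the other strand. ATP8 shares 40 bases with ATP6, and its 6417 CPM per kilobase cannot be separated from its neighbour. Control 5 was the highest library for 12 of the 13 genes, against 14.0% of all genes with 10 CPM or more: for COX1 it had 16722 CPM against 12923 to 13619 in the others.

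The remaining genes among the first 30 included a pseudogene and a structural RNA. LOC112444681, a pseudogene on chromosome 27 (6217392 to 6221524), stood second with 18418, 28121, 15792, 19154 and 18205 CPM in controls 1 to 5, and control 2 was the highest. RN7SL1, the RNA of the signal recognition particle, averaged 5143 CPM with an SD of 0.12. LRP1, an endocytic receptor that clears proteases and matrix fragments, averaged 6629 CPM. Just below the first 30 lay FAT1, an atypical cadherin (2536 CPM), and CDH11, the cadherin of mesenchymal cells (2469 CPM), after COX3 (2574 CPM) as the last gene inside. The order was shared with the LOS libraries, ranked in the same way: 28 of the first 30 genes and 95 of the first 100 were also among the first 30 and 100 there.

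**Figure D2:**
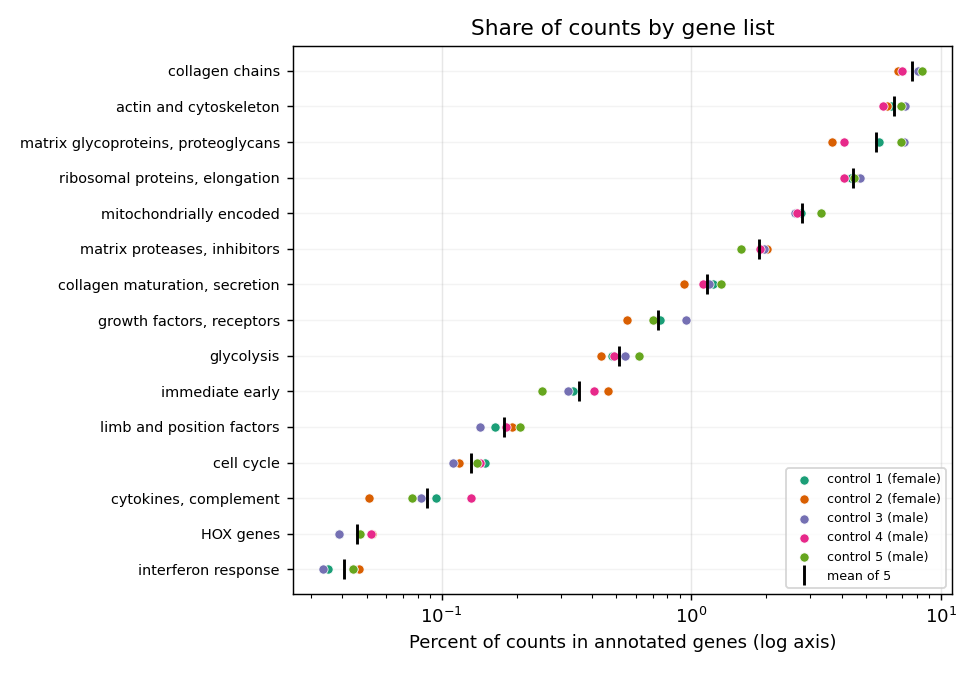
Percent of counts in annotated genes (log axis) held by each functional gene list in each control library (points), with a bar at the mean of 5. Collagen chains lead at 7.66%, and the matrix glycoproteins have the widest share, from 3.65% to 7.12%.

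Lists of signalling and growth genes held less. Growth factors, their receptors and antagonists held 0.733% of counts. GREM1, a secreted antagonist of bone morphogenetic proteins, led with 1830, 1363, 2116, 2464 and 1061 CPM. CTGF, described above and also in this list, came next at 1397 CPM, before IGF2R, the receptor that removes IGF2, at 975 CPM. Immediate early genes, which serum and handling induce within minutes, held 0.356% of counts. EGR1 had 654, 833, 522, 567 and 533 CPM and FOS 460, 766, 463, 641 and 365 CPM, both highest in control 2. Of 22 immediate early genes with 10 CPM or more, 10 were highest in control 2 and 14 lowest in control 5, against 30.9% and 29.4% of all genes at this level. Cell cycle genes held 0.131% ± 0.0162. MKI67, a nuclear protein of cycling cells, had 147, 117, 56.4, 151 and 172 CPM, and CENPF, a kinetochore protein made before mitosis, had 47.4, 47.7, 18.1, 70.3 and 86.0 CPM. Control 3 was lowest for both, as it was for 16 of the 27 cell cycle genes with 10 CPM or more, against 30.4% of all genes. Among the genes of the replication helicase, MCM2, MCM3, MCM4 and MCM7 were highest in control 1 and lowest in control 5, MCM5 was highest in control 1 and lowest in control 3, and MCM6 was highest in control 5 and lowest in control 2.

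Inflammatory and interferon genes were low. Interferon response genes held 0.0406% of counts, and only 6 of 26 measured members averaged 10 CPM or more. ISG15, a ubiquitin-like modifier strongly induced by interferon, averaged 1.09 CPM and RSAD2, an antiviral enzyme, 0.0113 CPM. MX1, an antiviral GTPase, was at 12.6 CPM in control 4 and at 2.13 CPM or less in the other libraries. Cytokine and complement genes held 0.0870% of counts. CSF1, the macrophage growth factor, had 260, 156, 251, 282 and 253 CPM, and the complement proteases C1S and C1R averaged 171 and 158 CPM with their highest values in control 4.

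Position genes of several body levels were read together. Of 39 HOX genes listed, 36 had a row and 11 averaged 10 CPM or more. HOXC6 led with 122, 198, 114, 174 and 141 CPM, followed by HOXC8 at 65.9 CPM and HOXB6 at 45.1 CPM. HOXD11 had no reads in the 5 libraries, and HOXA13 and HOXD13, the genes of the distal limb and tail, averaged 0.197 and 0.0365 CPM. HOXC10, a gene of the lower trunk and hindlimb, differed most, with 4.17, 31.9, 3.07, 6.97 and 27.1 CPM, so that controls 2 and 5 lay above the rest. The T-box factor TBX15, needed for limb and skin patterning, averaged 289 CPM, and EN1, a homeobox gene of the ventral ectoderm and of dermal fibroblast lineages, averaged 34.3 CPM with an SD of 0.21. TBX5, the forelimb factor, averaged 5.19 CPM and PITX1, the hindlimb factor, 3.19 CPM.

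Markers of other cell types were read from 16 lists with 245 markers, of which 155 had a row in the table and 107 of these averaged less than 1 CPM. Of all 21862 annotated rows, 12855 averaged 1 CPM or more and the rest less. Markers with no row are not analysed here, and every row of the table has reads in at least 1 of the 11 libraries. A count of 3 reads, the most that a count of 0 allows, corresponds to 0.168 to 0.227 CPM in these libraries. In bulk RNA, fewer cells of a type and less RNA per cell cannot be told apart.

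Blood and endothelial markers were low, with some above this limit. The 17 measured leukocyte markers summed to between 5.58 and 18.8 CPM per library: CD68 averaged 0.0203 CPM, CD3E 0.0299 CPM and CSF1R 0.288 CPM, and AIF1 had no reads. KIT, which mast cells and melanocytes share, was the highest of the 17 at 4.58 CPM. CD163, CD3G and FCER1G came next, at 1.44, 1.27 and 1.12 CPM, each above this limit in every library. Among red cell genes EPOR, the erythropoietin receptor, averaged 5.68 CPM, while the globins HBB and HBA averaged 0.288 and 0.0772 CPM. The 12 measured endothelial genes had a median of 0.666 CPM. FLT1, a receptor for vascular endothelial growth factor, was the highest, at 53.7, 9.54, 56.0, 15.4 and 35.6 CPM. ERG, an endothelial transcription factor, had 1.01 and 5.72 CPM in controls 2 and 4, its lowest values, as they were for FLT1, and up to 13.1 CPM in the others. The receptor TEK averaged 2.21 CPM and VWF, von Willebrand factor, 2.02 CPM, both with reads in every library. The junction genes PECAM1 and CDH5 averaged 0.366 and 0.512 CPM, with 0.0698 and 0.209 CPM in control 3, and the receptor KDR averaged 0.0151 CPM.

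Epidermal genes were low, and DSC3 was the only member of 13 with a mean of 10 CPM or more. KRT5 and KRT14, the keratins of basal keratinocytes, had reads in controls 1 and 4 (1.29 and 1.98 CPM for KRT5) and none in controls 2, 3 and 5. KRT17 also had 0 reads in controls 2, 3 and 5, with its highest value, 3.74 CPM, in control 4. KRT10, a keratin of upper layers, ran from 1.67 to 3.64 CPM, and CDH1, E-cadherin, from 2.02 CPM to 9.35 CPM in control 3, so that both had reads in every library. TP63, the master regulator of stratified epithelia, was at 0.227 and 0.283 CPM in these libraries. DSC3, a desmosomal cadherin, had 1.13, 22.9, 4.71, 4.19 and 75.3 CPM. It was therefore highest in control 5, where KRT5, KRT14 and TP63 had no reads.

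Muscle genes divided by type. Skeletal muscle markers summed to between 2.94 and 4.93 CPM and heart markers to between 0.0561 and 0.515 CPM per library; RYR2, the cardiac calcium channel, had no reads. Smooth muscle and pericyte genes summed to between 324 and 943 CPM. ACTG2, the enteric smooth muscle actin, had 169, 86.0, 486, 76.6 and 379 CPM, and CNN1, calponin, had 65.1, 33.5, 97.8, 20.3 and 119 CPM. Both were lowest in controls 2 and 4 and highest in controls 3 and 5, the order of COL12A1. CSPG4, a proteoglycan of pericytes, averaged 175 CPM (113 to 253 CPM), and LMOD1, a leiomodin of smooth muscle, 45.7 CPM (28.3 to 64.3 CPM). MYH11, smooth muscle myosin, averaged 7.89 CPM with its highest value, 16.7 CPM, in control 2, the pericyte gene RGS5 averaged 1.27 CPM and DES, desmin, 0.0840 CPM. How far other cells or the fibroblasts themselves carried these genes was not tested.

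Pigment and nerve sheath genes were mixed. PMEL, which forms the fibrils of melanosomes, had 77.6, 189, 44.0, 45.9 and 4.12 CPM, and MITF, the melanocyte master factor that other cells also make, had 62.8, 172, 39.8, 102 and 42.9 CPM. Both were highest in control 2. TYRP1, an enzyme of melanin synthesis, averaged 0.121 CPM and SLC45A2, a melanosome transporter, 0.116 CPM. OCA2 averaged 1.96 CPM, with reads in every library. KIT, of the same list, had 8.41, 8.86, 0.698, 4.93 and 0 CPM, and was also highest in control 2. PMEL lies 97 bases from CDK2 on the other strand, and the use of strand in counting was not given in the sources used here; CDK2 itself had 16.9, 14.6, 13.8, 12.8 and 8.97 CPM. For nerve sheath, PMP22, a myelin protein also made by fibroblasts, averaged 340 CPM, while ERBB3 averaged 0.0551 CPM and MBP 0.168 CPM. S100B, of the same list, had 9.39, 9.59, 3.63, 9.69 and 4.63 CPM, above the limit in every library. NGFR, the low-affinity neurotrophin receptor, had 6.74, 15.1, 0.209, 11.7 and 0.147 CPM, so that controls 3 and 5 were at the limit.

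Skeletal and fat lists held genes at very different levels. COL11A1, RUNX2 and SPP1 averaged 828, 73.1 and 55.8 CPM, while COL2A1, BGLAP and SP7 averaged 0.144, 0.0767 and 0.472 CPM. ACAN, the cartilage proteoglycan, had 9.01, 0.393, 19.5, 0 and 0.147 CPM, and was thus above the limit by a wide margin in controls 1 and 3 only. In fat, LPL averaged 15.8 CPM, the lipid droplet gene PLIN1 3.82 CPM and CIDEA 1.77 CPM, while ADIPOQ, FABP4 and LEP averaged 0.187, 0.495 and 0.0265 CPM. Liver, gut, lung and kidney lists held TTR at 12.4 CPM, ALB at 0.269 CPM and KRT18 at 0.0147 CPM. The neuron list summed to between 25.5 and 44.3 CPM: TUBB3, a neuronal tubulin, averaged 14.3 CPM, DCX, doublecortin, 8.39 CPM and STMN2, a stathmin, had 0.909, 21.2, 10.9, 1.76 and 6.54 CPM, while the synaptic gene SNAP25 averaged 0.303 CPM. Pluripotency and germ cell markers summed to between 0.224 and 1.19 CPM. The row named PAG1 in the trophoblast list lies on chromosome 14 (44169883 to 44329949) and is a membrane adaptor gene that shares its symbol with a placental glycoprotein, so its 38.5 CPM says nothing of trophoblast; the next marker, TFAP2C, averaged 0.315 CPM.

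**Figure D3:**
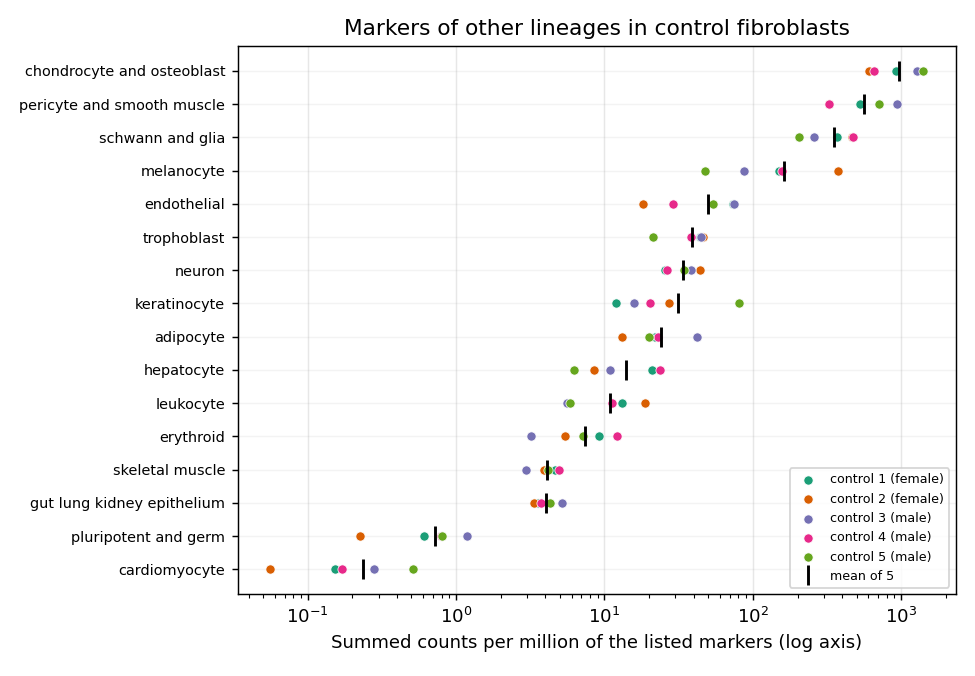
Summed CPM (log axis) of the measured markers of each lineage in each control library (points), with a bar at the mean of 5. Leukocyte, erythroid, skeletal muscle, heart and germ cell lists sum to less than 20 CPM in every library. The highest mean sums are those of the bone and cartilage list, led by COL11A1, and of the smooth muscle list, led by ACTG2. In controls 2 and 4 the Schwann and glia list lies above the smooth muscle list, and in control 2 the melanocyte list does as well.

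The spread between the cultures was then described for the 8730 genes with a mean of 10 CPM or more. The median SD of log2(CPM + 0.5) was 0.20, the middle range ran from 0.13 to 0.30, and the 95th percentile was 0.65. The median SD that read counting alone would give was 0.06. The SD was over 1 for 126 genes, or 1.44% of all, and over 2 for 15 genes. A gene that reaches a mean of 10 CPM through 1 or a few libraries has to vary, and 16 genes had a library at 1 CPM or less and another at 10 CPM or more. The genes on the threshold of 1 were TNFRSF1B and IGDCC4 inside (both 1.00) and CCDC3 and AQP1 outside (both 0.99).

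Among the 95 genes with 1000 CPM or more, only COL12A1 (SD 1.13) and TIMP3 (SD 1.01) passed 1, followed by FN1 (0.99), THBS1 (0.90), CTGF (0.89) and TNC (0.81). Each of these 6 genes had its 2 lowest values in controls 2 and 4. In the 6 LOS libraries the SD of FN1 was 0.26 and that of THBS1 0.41; these are values of another set of cultures, and the difference was not tested. The steadiest of the 95 were TUBB, SPTAN1 and TPT1, each with an SD of 0.07. Counts of genes over 1 in the lists stand against 1.44% of all genes. They were 2 of 20 collagen chains (COL18A1 and COL12A1), 4 of 48 glycoproteins and proteoglycans (MATN2, OGN, POSTN and FBN2), 2 of 23 proteases and inhibitors (MMP11 and TIMP3) and 2 of 40 cytoskeletal genes (ACTG2 and CNN1). They were 4 of 32 growth factor genes (IGF2, SFRP4, IGFBP2 and SFRP1), 2 of 9 cytokine and complement genes, 2 of 8 fibroblast subtype genes (SCARA5 and CD34), 1 of 11 HOX genes (HOXC10), 1 of 21 limb and position factors (HAND2) and 1 of 82 ribosomal protein and elongation genes (RPL12). No gene over 1 was found among 34 collagen maturation genes, 27 cell cycle genes, 22 immediate early genes, 18 glycolysis genes, 13 mitochondrial genes and 6 interferon response genes.

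**Figure D4:**
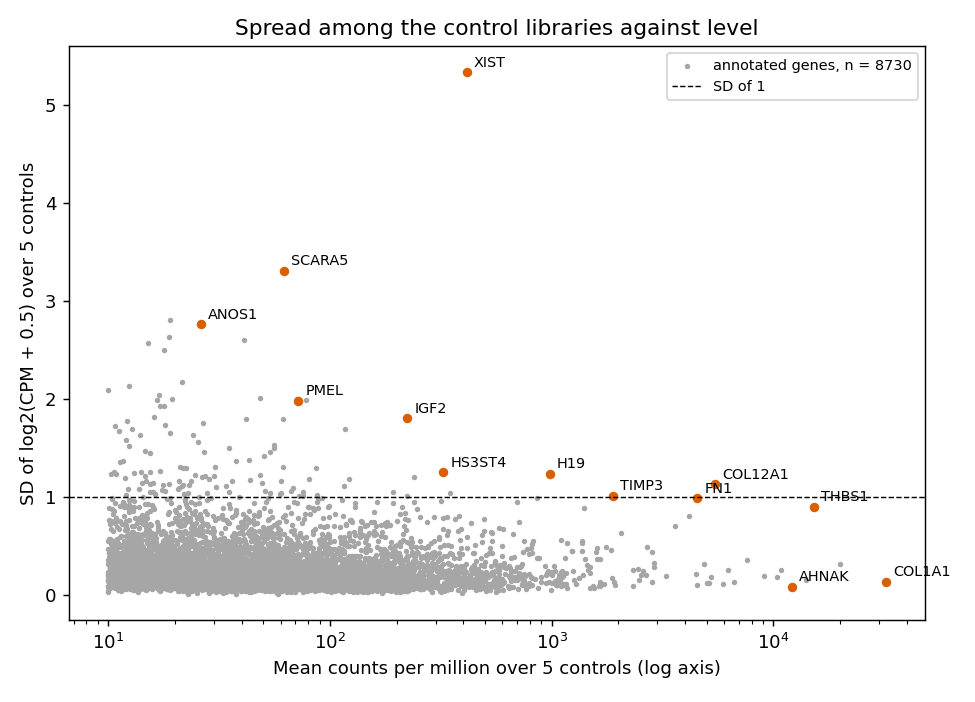
SD of log2(CPM + 0.5) over the 5 control libraries against mean CPM (log axis) for the 8730 genes with 10 CPM or more; the dashed line marks an SD of 1. Most genes lie near 0.20, XIST is alone at 5.34, and COL12A1, TIMP3 and FN1 lie near the line among the most counted genes.

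XIST, the noncoding RNA that silences an X chromosome in female cells, on chromosome X (77161577 to 77198299), had the highest spread, with an SD of 5.34. Its values were 957 and 1113 CPM in the female controls 1 and 2 and 0.518, 0.851 and 0.767 CPM in the male controls 3, 4 and 5, matching the sex label of all 5 fetuses. Sex is the only labelled difference among the controls and was tested with edgeR's quasi-likelihood test over 16826 rows, assembled loci included. The test called 2 rows, 0.0119% of those tested, at a Benjamini-Hochberg adjusted p under 0.05, both lower in males, and 0 were higher in males. For XIST the log2 fold change, male minus female, was −10.46 ± 0.24 (edgeR's quasi-likelihood test, Benjamini-Hochberg adjusted p = 0.000118). The ± values of both rows are approximate SEs derived from the F statistic of the test. The other row was the assembled locus MSTRG.14990, with −4.44 ± 0.22 (edgeR, adjusted p = 0.00624), a call that ended without control 2 (adjusted p = 0.0635) or without control 3 (adjusted p = 0.102). An unadjusted p under 0.05 was found for 420 rows, and DESeq2 called 14. Apart from XIST, none of the 30 most variable annotated genes was called between the sexes. In simulated counts of this design the edgeR test recovered 12 of 100 genes changed 2-fold and 67 of 100 changed 4-fold, with 9 false calls. A missing call therefore does not show equal levels in the sexes.

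The next genes in the order of spread were high in some cultures and close to nothing in others. SCARA5, a scavenger receptor for ferritin on chromosome 8 (10796560 to 10929735), had 70.6, 58.8, 1.19, 178 and 0.809 CPM, an SD of 3.31. FLVCR2, a transporter of the same family as the heme exporter, had 30.4, 37.8, 0.558, 26.4 and 0.294 CPM, and ANOS1, the matrix protein anosmin on the X chromosome, had 30.8, 18.9, 1.74, 79.2 and 0.294 CPM. Controls 3 and 5 were the low libraries for all of these. The same held for SPON1, a spondin of the matrix (19.9, 45.2, 0.698, 27.4 and 0.515 CPM), and for CDH23, a long cadherin (21.5, 30.8, 3.14, 28.7 and 0.882 CPM). GLP1R, the receptor for an incretin hormone, had 36.2, 57.2, 0.489, 94.1 and 16.2 CPM, so that only control 3 was near 0, and without control 3 its SD fell from 2.60 to 1.06. RIPOR2, an inhibitor of RhoA, and IQGAP2, a scaffold of the cell cortex, also had their lowest values in controls 3 and 5. Over the 126 genes with an SD over 1, controls 2 and 4 were the highest library for 41 and 34, and controls 5, 2 and 3 the lowest for 40, 35 and 30. As shares of the 126, controls 2 and 4 were highest for 32.5% and 27.0%, against 30.9% and 24.6% of all 8730 genes. Controls 5, 2 and 3 were lowest for 31.7%, 27.8% and 23.8% of the 126, against 29.4%, 21.0% and 30.4% of all.

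**Figure D5:**
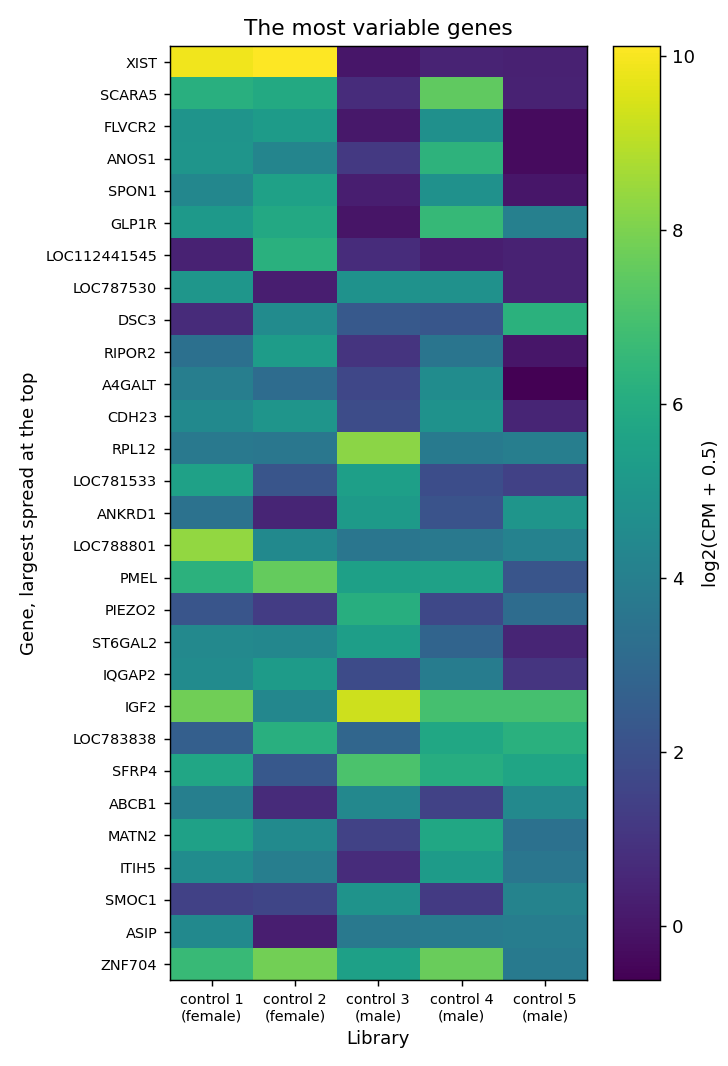
Log2(CPM + 0.5) in each control library (columns) for the 30 genes with the highest SD (rows; 1 is not shown), on a colour scale from dark (low) to yellow (high). XIST is high in the female libraries; SCARA5, FLVCR2, ANOS1 and SPON1 are low in controls 3 and 5; RPL12, LOC788801 and LOC112441545 are high in a single library.

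Other genes had the opposite order. SMOC1, a calcium-binding matricellular protein, had 2.27, 2.58, 29.4, 1.81 and 17.6 CPM, high in controls 3 and 5. ANKRD1, a nuclear factor induced by YAP and by stretch, had 10.3, 0.897, 37.2, 3.85 and 30.8 CPM, with controls 2 and 4 lowest, the order seen for CTGF and FN1. Among better counted genes HS3ST4, a heparan sulfate sulfotransferase, had 194, 93.7, 672, 127 and 534 CPM, and IGFBP2, which binds insulin-like growth factors, had 15.7, 27.6, 113, 29.9 and 121 CPM. OGN, the proteoglycan osteoglycin, ran from 12.9 CPM in control 4 to 149 CPM in control 5. For these 3 genes as well, controls 3 and 5 were the highest. The genes from HS3ST4 to OGN lie outside the 30 most variable and were chosen after their values were seen.

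Of the other variable genes, some had an order of their own and some shared an order described above. IGF2, the fetal growth factor, had 223, 19.7, 629, 125 and 123 CPM, and H19, the noncoding RNA of the same imprinted domain on chromosome 29, had 1274, 188, 1662, 1061 and 722 CPM. Both were lowest in control 2 and highest in control 3. SFRP4, a Wnt antagonist, was also lowest in control 2 (4.54 CPM) and highest in control 3 (134 CPM). Without control 2 the SD of IGF2 was 1.10 and that of SFRP4 0.64, against 1.79 for SFRP4 with all 5. ABCB1, the drug efflux pump, had 15.6, 1.12, 20.7, 2.32 and 21.3 CPM, with controls 2 and 4 lowest, the order of FN1. PMEL, with its low value in control 5, had an SD of 1.98, and 0.97 without that library. For ZNF704, a zinc finger gene at 13.0 CPM in control 5, the SD went from 1.69 to 1.08 without control 5. For ST6GAL2, a sialyltransferase, it went from 1.92 to 1.06, and for A4GALT, the synthase of globotriaosylceramide, from 2.09 to 1.27. PMEL, ZNF704 and A4GALT were lowest in controls 3 and 5, as SCARA5 was, while ST6GAL2 was lowest in controls 4 and 5.

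A few of the most variable genes were set by a single library. RPL12 had 302 CPM in control 3 and between 11.9 and 15.1 CPM elsewhere, LOC788801 had 329 CPM in control 1 and between 11.6 and 21.9 CPM elsewhere, and LOC112441545 had 72.0 CPM in control 2 and at most 1.14 CPM elsewhere. Without these libraries their SDs were 0.14, 0.41 and 0.19. RPL12 has related copies in the genome, and the assignment of shared reads was not given in the sources used here. ASIP, the agouti signalling protein of pigmentation, was at 0.709 CPM in control 2 and between 12.7 and 22.0 CPM elsewhere, an SD of 0.34 without control 2. PIEZO2, a mechanosensitive channel, reached 68.6 CPM in control 3 and at most 8.60 CPM elsewhere, and its SD without control 3 was 0.82. MATN2, a matrilin, and ITIH5, a hyaluronan-binding protein, were lowest in control 3, at 2.30 and 1.19 CPM. Control 5 was the next lowest for both, at 10.1 and 11.7 CPM. Without control 3 their SDs were 1.08 and 0.73, so that of MATN2 stayed over 1 and was not set by that library alone.

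LOC787530, a pseudogene on chromosome 3 (19220781 to 19222504), and LOC781533, a transcribed pseudogene on chromosome 7 (110516391 to 110518918), had 2 separate levels. LOC787530 had 31.9, 28.2 and 27.9 CPM in controls 1, 3 and 4 and under 1 CPM in controls 2 and 5, with 0.819 CPM in control 5. LOC781533 had 44.9 and 42.8 CPM in controls 1 and 3 and 4.10, 3.24 and 2.23 CPM in controls 2, 4 and 5. LOC783838, another transcribed pseudogene, had 69.7, 54.2 and 73.5 CPM in controls 2, 4 and 5 and 5.69 and 7.04 CPM in controls 1 and 3. The parts of genotype and of the counting of shared reads in these levels were not tested. Of 18 transcribed pseudogenes with 10 CPM or more 3 had an SD over 1, against 117 of 8558 protein-coding genes and 4 of 97 long noncoding RNA genes.

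The LOS libraries, which the ranking did not use, gave a further set of values for the same genes. Of the 126 genes with an SD over 1 in the controls, 57 (45.2%) had an SD over 1 there, against 2.06% of all 8730 genes, and their median SD was 0.93 against 0.20. Among the 30 most variable genes it was 22, with a median SD of 1.40. SCARA5 had an SD of 2.72 and ran from 0 to 59.6 CPM in the LOS libraries, FLVCR2 2.96, RPL12 2.28 and LOC788801 2.38. LOC787530 was near the median of all genes there, with an SD of 0.18 and a range from 20.3 to 28.4 CPM. ZNF704, PIEZO2 and ANOS1 had SDs of 0.44, 0.64 and 0.68, under 1 but above that median.

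The allelic read table gave another readout, from the same libraries, for part of the abundant genes, since the parents were of different subspecies. Of the 100 genes with the most reads, 58 were in it, and 47 had 20 or more allelic reads in each of the 5 control libraries. The mean maternal share lay within 45% to 55% for 35 of the 47, and the median was 50.8%. For COL1A2 it was 50.9% and for FN1 49.8%, with 48.0% to 51.3% over the 5 libraries. COL12A1 averaged 52.2% and ran from 48.2% in control 3 to 58.3% in control 4. TNC had 50.8%, 50.3%, 50.8%, 39.6% and 51.6% in controls 1 to 5, with control 4 apart, on 8092 allelic reads in that library. The highest share was that of IGF2R, a gene known to be imprinted, at 80.3% (78.0% to 84.2%), followed by TPT1 at 68.6%. SCARA5 had allelic reads in the 3 libraries where it was high, with a maternal share of 61.5%, 61.9% and 62.0% in controls 1, 2 and 4. The depth behind these shares was 30988 allelic reads for COL1A2, 25339 for FN1, 4816 for IGF2R and 3039 for SCARA5, and the rule for choosing the sites was not given in the sources used here.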

How the data were processed

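The authors' deposited gene table holds expected counts (estimated reads per gene, not normalised; 71.2% of values are whole numbers, with no tolerance). A further table deposited by the authors holds whole read counts for the maternal and the paternal allele. Per the submitters' processing notes, the genome build was ARS-UCD1.2, and the tools named for reads and alignment include HISAT2 2.1.0, FastQC 0.11.7, Picard 2.22.4, SAMtools 1.8 and GATK. Those named for transcripts and counts are Salmon 0.11.1, StringTie 2.1.4, Cufflinks 2.2.1 and edgeR 3.36.0, although the notes give no roles. How reads were counted, and with what use of strand, was not given in the sources used here.

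Counts of the 5 control libraries were divided by each library's total over annotated genes and scaled to CPM. The spread was the SD of log2(CPM + 0.5) for genes with a mean of 10 CPM or more. The effect of sex was tested on rounded counts with edgeR 4.0.16 in R 4.3.3 (TMM scaling, filterByExpr, quasi-likelihood test) at an adjusted p under 0.05, and the script was tested on simulated data. The replicates are different fetuses with 1 culture and 1 library each, so differences between fetuses and between cultures cannot be told apart. Alternatives were another total, TMM scaling, other pseudocounts and level thresholds, DESeq2 1.42.0 and each library left out in turn. The LOS libraries gave ranks and SDs as a further set of values, and no gene was tested between controls and LOS.

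The members and the 34 gene lists were chosen with earlier results of these data known. The rule names the 30 genes highest in mean CPM, the 30 highest in SD, up to 4 members per list by level (and by SD in some lists), genes called between the sexes and genes at the thresholds. Other named genes were chosen after their values were seen. Python 3.11.15 with matplotlib 3.10.9 drew the figures. Some genes are not reported here.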

Additional observations from a re-analysis of the deposited data

Results flagged for a closer look

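Of 192 named genes, 14 had a control library whose gap to the nearest of the other 4 was large for the range of the 5 values (Dixon's ratio above its 95% critical value). Chance gives such a gap in about 1 in 20 groups that were not chosen by their values. The named genes include those picked for a high SD over the same 5 values, so that rate cannot be applied to them. By library, 6 of the 14 gaps were in control 2, 5 in control 5 and 1 in each of the other libraries. The genes are not independent of each other, and the split by library was not tested.

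Control 2 was high for COL3A1, the type III collagen chain, at 8342 CPM (others 5398 to 5999), and for LOC112441545 at 72.0 CPM (others 0.727 to 1.14). It was low for LOX, the collagen crosslinking enzyme, at 903 CPM (others 1670 to 1897), for CSF1, the macrophage growth factor, at 156 CPM (others 251 to 282), for CCND2, a G1 cyclin, at 100.4 CPM (others 126 to 135), and for ASIP at 0.709 CPM (others 12.7 to 22.0).

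Control 5 was high for the mitochondrially encoded genes COX1, at 16722 CPM (others 12923 to 13619), COX3, at 3420 CPM (others 2316 to 2413), and ND1, at 1849 CPM (others 1593 to 1630). It was low for HOXC4 at 16.0 CPM (others 22.0 to 24.5) and for the adaptor gene PAG1 at 21.2 CPM (others 37.7 to 45.3).

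Control 3 was high for RPL12 at 302 CPM (others 11.9 to 15.1), control 1 was high for LOC788801 at 329 CPM (others 11.6 to 21.9), and control 4 was low for COL6A3, a type VI collagen chain, at 4156 CPM (others 5320 to 5822).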

How the results depend on the processing

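With assembled loci in the total, the first 1000 genes held 57.5% of counts and ribosomal protein genes 4.16%. Without mitochondrial genes, ribosomal RNA and LOC112444681, the first 10 genes held 12.2% and the first 100 held 29.5%. The numbers of genes with an SD over 1 and over 2 (126 and 15) were 371 and 26 from a mean of 1 CPM and 36 and 3 from a mean of 50 CPM, and a pseudocount of 2 CPM gave 7 genes over 2. With each library left out, 112 to 170 genes passed 1 and 13 to 23 passed 2, the highest number without control 4. In the test of sex, named rows alone gave 1 call, lower in males; DESeq2 gave 14, 6 higher and 8 lower; leaving out each library gave 1 to 4 calls, 0 to 1 higher and 1 to 4 lower. The other 130 summary values under alternatives stayed within the spread or within 1.5 times. Of the first 50 genes, 48 were also among the first 50 by median. Counts per kilobase were not run, because no transcript lengths of this build were used here, so the order of genes is not an order of transcript numbers. No paired analysis was possible because female controls are numbered 1 and 2 and male controls 3 to 5, so that no number is shared. With 2 female and 3 male fetuses, calls of sex rest on few cultures.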
